A study of Rattus norvegicus with 2 samples.

Results

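The Cyp4a fatty acid omega-hydroxylases and a set of other classical targets of the nuclear receptor Ppara were examined in rat liver. The set had 8 genes, which were Cyp4a1, Cyp4a2, Cyp4a3, Cyp4a8, Pdk4, Angptl4, Ucp2 and Vnn1, and every probe set that carried 1 of these as its only gene symbol in the platform annotation was taken. This gave 8 probe sets for 7 genes, out of 15866 non-control probe sets and 10411 genes with a single symbol. No probe set carried Cyp4a2 as its single symbol, and no probe set with several symbols named a member. Total liver RNA came from SD rats, an outbred laboratory strain, of which 1 sample was from a rat labelled high-fat diet and 1 from a rat labelled low-fat diet. Both feeds were based on AIN93G, a purified rodent diet, and both descriptions gave an age of 4 weeks and 9 weeks of feeding. The sources used here do not give the fat content or fat source, sex, feeding state at collection, or how many animals each RNA came from. A single array stood for each diet, so nothing was tested, no value has a replicate check, and each difference describes these 2 arrays only. Fewer cells of a type and less RNA per cell cannot be told apart in such whole-tissue RNA.

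Ppara is a receptor that is activated by fatty acids and by fibrate drugs. Paired with a retinoid X receptor, it binds direct repeats of the motif AGGTCA near genes of fatty acid use, and in rodent liver it drives their expression during fasting and drug treatment. The Cyp4a enzymes are cytochromes P450 of the endoplasmic reticulum that oxidise the terminal carbon of fatty acids, which opens the route to dicarboxylic acids. The other members are targets in separate branches of fuel use, namely glucose oxidation (Pdk4), plasma triglyceride clearance (Angptl4), mitochondrial transport (Ucp2) and coenzyme A turnover (Vnn1).

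Most members had nearly the same signal on both arrays. After centring, the signal of Angptl4 was lower on the high-fat array by 1.59-fold and that of Ucp2 by 1.22-fold. Cyp4a1, Cyp4a3, Pdk4 and Vnn1 differed by less than 1.05-fold. Cyp4a8 was higher by at least 1.61-fold at a signal close to the detection limit, with only its high-fat signal above that limit. This bound depends on the scaling and was smaller without centring. Signals are intensities on a linear scale, and the median of an array, 14 on the high-fat and 15.7 on the low-fat array, served as its detection floor because the deposited table gives no detection calls. Ratios are given on the log2 scale, high-fat over low-fat, centred on their median over the 7864 probe sets whose mean log2 signal reached the mean of both floors (called measured here). That median was -0.12 before centring, so an uncentred ratio is lower by this amount. Signals, and sums of signals over cell type markers, are not centred. None of the 7 measured members reached a 2-fold difference in either direction, where a signal below its floor was set to the floor. By the same rule 0.582% of all 6012 measured genes reached 2-fold on the higher side and 0.566% on the lower. With signals of the same 6012 genes taken as deposited, not set to the floor, the shares were 0.848% on the higher and 0.865% on the lower side. Cyp4a8 was then the 1 member past 2-fold, on the higher side.

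**Figure D1:**
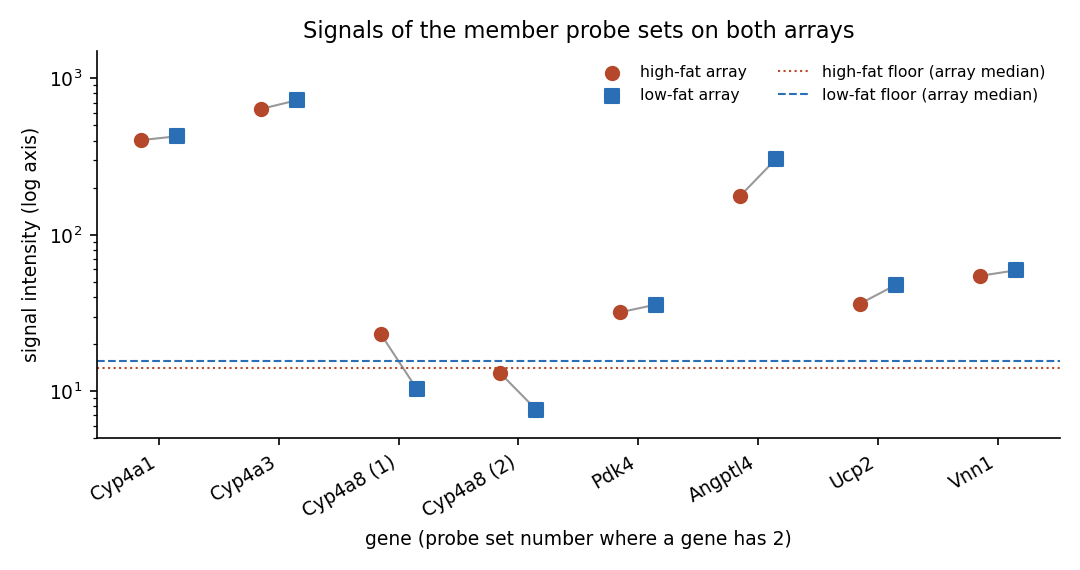
Signal intensity of the 8 member probe sets (log axis) on the high-fat array (circles) and the low-fat array (squares), with each array's floor as a horizontal line. Angptl4 had 177.3 on the high-fat and 306.1 on the low-fat array, and only the Cyp4a8 probe sets lay near or below the floors.

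The Cyp4a genes lie next to one another. In the RefSeq gene table of assembly GRCr8 they fall in a block of 16 genes and pseudogenes on chromosome 5, of which 10 have names that begin with Cyp4. The order is Cyp4x1, Cyp4a8, Cyp4a2, Cyp4a2l1, Cyp4a3, Cyp4a1 and Cyp4b1, with pseudogenes between them. Start regions from RefSeq (GRCr8, 250 bases before to 50 after the gene start) were on hand for 6 members, and not for Cyp4a1 or Vnn1. Most of such a window lies before the transcript, so likeness here does not show whether probe sets can be told apart. Those of the Cyp4a genes are shown for how alike these neighbours are in this window. That of Angptl4 is shown because this gene had the lowest ratio of the set. Capitals mark AGGTCA on either strand in the Cyp4a genes and TATAAA, on both strands with overlap, in Angptl4. All 4 lie on the minus strand and are written in the direction of transcription, Cyp4a2 at chr5:134170859-134171158, Cyp4a3 at chr5:134352187-134352486, Cyp4a8 at chr5:133970177-133970476 and Angptl4 at chr7:15258632-15258931.
Cyp4a2: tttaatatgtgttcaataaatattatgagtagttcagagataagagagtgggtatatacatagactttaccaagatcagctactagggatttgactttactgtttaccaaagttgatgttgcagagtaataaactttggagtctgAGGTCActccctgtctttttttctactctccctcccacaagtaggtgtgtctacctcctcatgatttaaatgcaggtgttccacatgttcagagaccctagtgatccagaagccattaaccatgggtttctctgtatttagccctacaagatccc
Cyp4a3: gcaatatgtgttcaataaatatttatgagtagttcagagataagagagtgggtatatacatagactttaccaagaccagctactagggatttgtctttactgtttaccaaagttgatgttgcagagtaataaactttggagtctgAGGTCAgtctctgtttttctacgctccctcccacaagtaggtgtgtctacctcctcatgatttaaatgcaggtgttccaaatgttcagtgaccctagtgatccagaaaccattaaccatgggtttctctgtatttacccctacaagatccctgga
Cyp4a8: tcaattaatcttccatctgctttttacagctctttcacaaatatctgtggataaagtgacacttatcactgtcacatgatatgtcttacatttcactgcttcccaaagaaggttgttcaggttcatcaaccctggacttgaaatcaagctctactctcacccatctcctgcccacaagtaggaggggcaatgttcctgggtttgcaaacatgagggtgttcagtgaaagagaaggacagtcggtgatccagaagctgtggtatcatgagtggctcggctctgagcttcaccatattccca
Angptl4: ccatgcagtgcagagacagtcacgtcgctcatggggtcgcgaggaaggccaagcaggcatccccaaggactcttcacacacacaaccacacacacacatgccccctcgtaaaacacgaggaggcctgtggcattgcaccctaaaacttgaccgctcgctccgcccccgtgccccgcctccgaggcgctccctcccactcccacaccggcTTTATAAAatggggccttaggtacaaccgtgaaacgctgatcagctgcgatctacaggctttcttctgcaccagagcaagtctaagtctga

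Cyp4a2 and Cyp4a3 shared 284 of 295 aligned bases in this window (96.3%), and both had AGGTCA with its first base at position -105 from the gene start. Cyp4a8 shared 172 of 290 aligned bases with Cyp4a3 (59.3%) and had no AGGTCA here. The motif occurs in 16.2% of the 33469 RefSeq start regions of the same length, and in 2 of the 6 member regions. The full direct repeat AGGTCANAGGTCA, searched on both strands, was in none of the 6 and in 0.0538% of all start regions. With up to 3 mismatches it was in 2 of the 6, again Cyp4a2 and Cyp4a3, and in 24.9% of all. TATAAA was in 1 of the 6 (Angptl4) and in 14.2% of all. These matches describe letters in a short window and say nothing of receptor binding.

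Of the omega-hydroxylases, Cyp4a1 had a signal of 402.4 on the high-fat array, against 425.9 on the low-fat array (probe set 1368934_at). Cyp4a1 is induced in rat liver by fibrates and is often used as a readout of Ppara activity. Its centred log2 ratio was 0.03, and 55.2% of measured genes had a lower ratio. The sign of Cyp4a1 turned with the scaling, with -0.08 without centring, -0.02 with centring on hybridization controls and -0.01 with a pseudocount of 50. Both signals were far above the floors, at 28.7 times the high-fat floor and 27.1 times the low-fat floor.

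Cyp4a3, a close relative of Cyp4a2 with the same type of reaction, had a signal of 636.4 on the high-fat array and 723.1 on the low-fat array (probe set 1370397_at). The centred log2 ratio was -0.07, and over 7 scalings it lay between -0.18 and -0.07. The measured probe sets were split into 10 equal bins of signal to show how widely ratios scatter. In the brightest bin, which held Cyp4a1 and Cyp4a3, the robust SD of the ratio (from the median absolute deviation) was 0.171, and both members were within that spread. The Cyp4a genes are a family of similar sequence, so the assignment of a probe set to a single member, above all to Cyp4a3 and not Cyp4a2, is uncertain, and probe sequences were not used here.

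Cyp4a8, a family member described mainly from rat kidney, had signals near the floors. Its probe set 1368607_at read 23.3 on the high-fat array, above that array's floor, and 10.4 on the low-fat array, below that array's floor. The fold is therefore a bound, with Cyp4a8 higher on the high-fat array by at least 1.61-fold. It counted as measured through its high-fat signal. Dim probe sets vary more, and the robust SD of the ratio was 0.487 in the dimmest bin, which held Cyp4a8. The second Cyp4a8 probe set, 1393894_at, read 13 on the high-fat array and 7.6 on the low-fat array. Both values were below their floors, so no fold or direction is given. Cyp4a8 was higher on the high-fat array under all 7 scalings, with a bound on the log2 scale of 0.57 without centring and 0.22 with a pseudocount of 50. With a low-fat signal below the floor, it could count as measured only through a high-fat signal above the floor. The unchanged direction over the scalings therefore adds no support for it. Kidney markers were set beside it, since Cyp4a8 is known from that organ. None of the 7 kidney markers, among them Umod and Slc12a1, was above the floors, and their summed signal was 22.8 on the high-fat and 22.1 on the low-fat array.

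Among the members outside the Cyp4a family, Angptl4 differed most. Angptl4 is a secreted inhibitor of lipoprotein lipase and so slows the clearance of plasma triglycerides. Its probe set (1388924_at) read 177.3 on the high-fat array, against 306.1 on the low-fat array. The centred log2 ratio was -0.67, a 1.59-fold lower signal, and it ranked 225th from the lowest among 6012 measured genes, with 3.73% of genes lower. The robust SD of the ratio in its signal bin was 0.228. The ratio of Angptl4 was negative under all 7 scalings, between -0.79 and -0.59. Angptl4 is also abundant in fat tissue, and of 5 adipocyte markers with a probe set only Cfd and Cidea were above both floors. The summed signal of the 5 was 86.7 on the high-fat array and 90.9 on the low-fat array, while Fabp4, Lep and Plin1 were below both floors. Their part in the Angptl4 value was not tested.

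Pdk4, a kinase that phosphorylates and shuts off the pyruvate dehydrogenase complex, had a signal of 32 on the high-fat array and 35.8 on the low-fat array (probe set 1369150_at). The centred log2 ratio of -0.05 lay near the middle of all measured genes, 44.2% of which were lower. Its signal was 2.29 times the floor on the high-fat array and 2.28 times the floor on the low-fat array, and the robust SD of the ratio in its signal bin was 0.341.

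Ucp2, a carrier of the inner mitochondrial membrane, had a signal of 36.3 on the high-fat array and 47.9 on the low-fat array (probe set 1368669_at). Its centred log2 ratio was -0.28, a 1.22-fold lower signal, and 17.8% of measured genes were lower. The ratio was negative under all 7 scalings, from -0.40 to -0.12, and smaller than the robust SD of 0.313 in its signal bin. In normal liver Ucp2 is found more in Kupffer cells, the resident macrophages, than in hepatocytes. All 9 Kupffer cell or macrophage markers with a probe set were above both floors, and their summed signal was 1267 on the high-fat array and 1449 on the low-fat array. Their centred ratios were above 0 for 5 of the 9 and below 0 for 4, around a median of 0.01, and the part of these cells in the Ucp2 value was not tested.

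Vnn1, a pantetheinase that releases pantothenate and cysteamine, had a signal of 54.6 on the high-fat array and 59.3 on the low-fat array (probe set 1389253_at). The centred log2 ratio was -0.002, and its sign turned with quantile normalization and with loess. Vnn1 lay at the middle of the measured genes, 49.7% of which were lower.

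**Figure D2:**
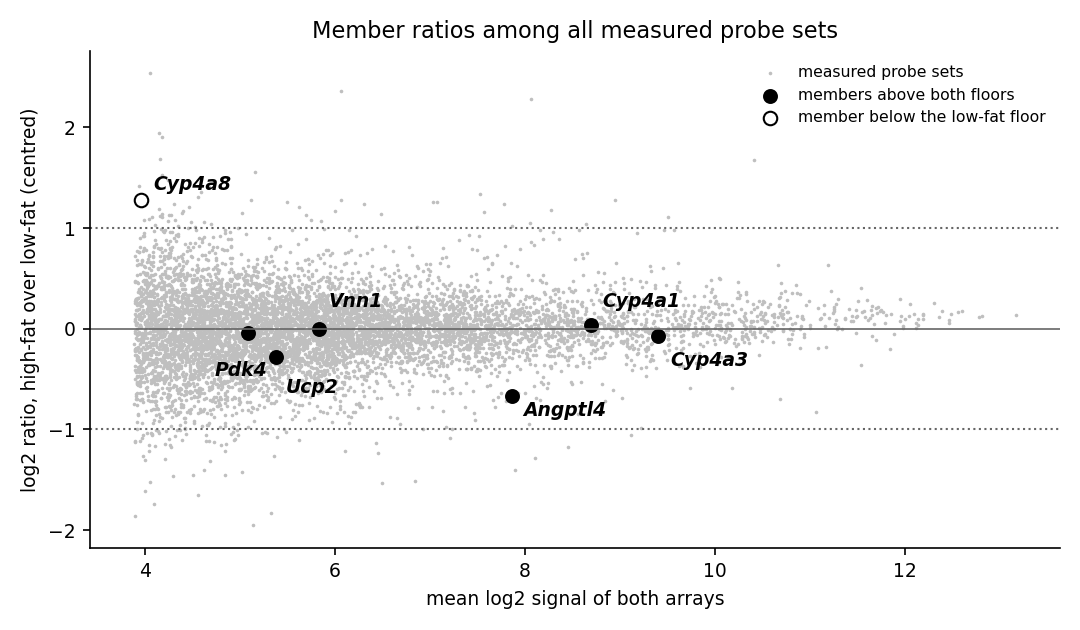
Centred log2 ratio (high-fat over low-fat) against the mean log2 signal for 7864 measured probe sets (grey) and the 7 measured members (black), with dotted lines at 2-fold. Angptl4 lies low for its signal at -0.67, and Cyp4a8 (open circle, as deposited, below the low-fat floor) lies among the widely scattered dim probe sets.

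The 7 measured members had a median centred log2 ratio of -0.05, against -0.0002 over all 6012 measured genes, whose 25th and 75th percentiles were -0.20 and 0.18. Of the 7, 5 were below 0 and 2 above. Without centring 6 were below 0 and 1 above, while with quantile normalization or loess 4 were below and 3 above, and the genes that changed side were Cyp4a1 and Vnn1. Angptl4 and Ucp2 were on the lower side under each scaling run, and Cyp4a3 and Pdk4 were slightly below 0 under each. Cyp4a8 was on the higher side under each, which adds no support because it was measured only through its high-fat signal.

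**Figure D3:**
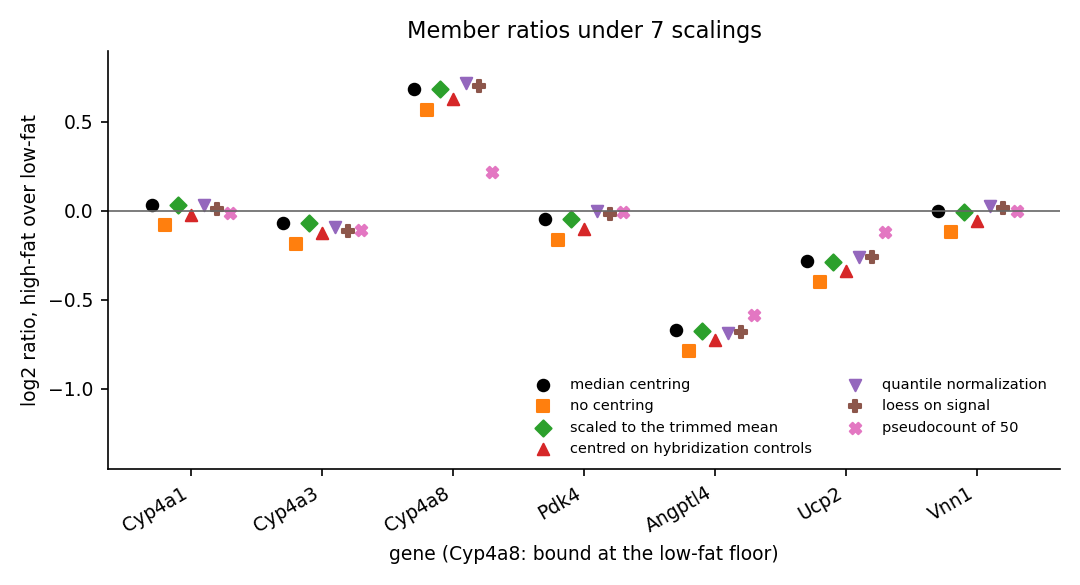
Log2 ratio (high-fat over low-fat) for the 7 measured members under 7 scalings of the 2 arrays (Cyp4a8 as a bound at its low-fat floor). Angptl4 stayed between -0.79 and -0.59, while Cyp4a1 and Vnn1 crossed 0.

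The genes whose signal and ratio were closest to each member were found by distance in the plane of mean log2 signal and centred ratio, over the 2 arrays. Nearest to Angptl4 were Ndufb1, a subunit of respiratory complex I, at 187.2 on the high-fat and 315.7 on the low-fat array, Dbp, a clock-driven transcription factor, at 167.2 on the high-fat and 297.4 on the low-fat array, and Fdps, an enzyme of isoprenoid synthesis, at 197.3 on the high-fat and 333.3 on the low-fat array. Their distances were 0.070, 0.076 and 0.142. For Cyp4a8 the signals as deposited placed Cib2, Cyyr1 and Cask nearest, but all 4 were below the low-fat floor, so their ratios are only bounds and no distance is given. The other members had neighbours at distances of 0.052 or less, with Cox6b1 nearest to Cyp4a3, H2az1 to Cyp4a1, Mms19 to Pdk4, Tmem245 to Ucp2 and Dync1li1 to Vnn1. Likeness over 2 arrays is a description of 2 values and not of a shared pattern.

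Relatives and partners of the members, in 4 lists, held 121 further genes, of which 98 had a probe set and 78 were measured. At 2-fold 1 of the 78 was higher, Crot, and 3 were lower, Por, Med1 and Me1. That is 5.13% in both directions together, beside 0.582% of all measured genes on the higher side and 0.566% on the lower. The lists were chosen with earlier results of these data known, so the difference in shares is a description only. Of these genes only Por was past 2-fold under all 7 scalings. The median ratio of the 78 was -0.01, with 38 above 0 and 40 below. Without centring 24 were above 0 and 53 below.

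No other measured P450 of the Cyp4 group was past 2-fold, which held for most measured genes. Cyp4v3 had 464.9 on the high-fat and 412.5 on the low-fat array (0.29), with the centred log2 ratio in brackets. Cyp4b1 had 42.9 on the high-fat and 40.7 on the low-fat array (0.19), and Cyp4f4 had 338 on the high-fat and 388.7 on the low-fat array (-0.08). The largest ratio of this list belonged to Por, the reductase that donates electrons to these enzymes. Por had 369.8 on the high-fat array, against 831.4 on the low-fat array, a 2.07-fold lower signal, and its second probe set had 223.4 on the high-fat and 547.2 on the low-fat array. Both Por probe sets were past 2-fold under all 7 scalings. Of the enzymes that carry omega-hydroxylated fatty acids on to dicarboxylic acids, Adh4, an alcohol dehydrogenase, had a ratio of -0.62 (135.5 on the high-fat and 226.0 on the low-fat array) and Aldh3a2, a fatty aldehyde dehydrogenase, one of -0.15. In this list of 9 measured genes 5 were above 0 and 4 below, but 2 and 7 without centring.

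No measured relative of Pdk4, Angptl4, Ucp2 or Vnn1, of 13, was past 2-fold. Over all measured genes the shares were 0.582% higher and 0.566% lower, so this is not a trait of these relatives. Angptl8, a further secreted regulator of lipoprotein lipase, had 140.3 on the high-fat array and 86.4 on the low-fat array, a ratio of 0.82, where that of Angptl4 was -0.67. The ratio of Angptl8 was positive under all 7 scalings, down to 0.54 with the pseudocount. Pdk2, the kinase isoform widely expressed in liver, had 300.8 on the high-fat and 403.2 on the low-fat array (-0.31), and its second probe set had a ratio of -0.44. Pdk1 had a ratio of -0.37, but 0.09 on its second probe set, which turned to -0.02 without centring. Ucp3 was below the floor on both arrays. Enzymes that build coenzyme A from the pantothenate that Vnn1 releases had ratios of -0.35 (Pank3), -0.31 (Ppcs), -0.17 (Coasy) and 0.06 (Pank4). Pank2 and Ppcdc had signals too low to count as measured. Pank4, Pank2 and Ppcdc were added after their values were seen, to complete this route. Vnn3 had no probe set with that single symbol.

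The probe set of Ppara itself read 4.1 on the high-fat and 2.2 on the low-fat array, and that of its coactivator Ppargc1a read 0.5 on the high-fat and 5.9 on the low-fat array. All 4 values were below the floors, so no fold is given. The partner receptor Rxra was close to the floor, with 17.8 on the high-fat and 26.4 on the low-fat array (-0.45). Lpin1, a phosphatidate phosphatase that also acts as a coactivator of Ppara, had 182.4 on the high-fat array, against 379.7 on the low-fat array (-0.94), and passed 2-fold under 1 of the 7 scalings, that without centring. Med1, the Mediator subunit that binds nuclear receptors, was 2.17-fold lower, at 16.7 on the high-fat and 39.3 on the low-fat array. That high-fat signal was also close to the floor. The second Med1 probe set had a ratio of only -0.25, and the first was under 2-fold with the pseudocount (-0.36). Crebbp, a histone acetyltransferase, had 28.7 on the high-fat and 20.7 on the low-fat array (0.59), with a ratio of 0.22 under the pseudocount. The second Crebbp probe set was below both floors. Nr0b2, a repressor receptor, had a ratio of -0.26 and Rxrg one of -0.23. Of the 10 measured genes in this list 4 were above 0 and 6 below, with a median of -0.18.

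Further Ppara targets outside the set went both ways, 22 above 0 and 24 below of 46 measured, with a median of -0.01. Crot, which makes medium-chain acylcarnitines in peroxisomes, had 366.6 on the high-fat array, against 192.2 on the low-fat array, a 2.07-fold higher signal, and its second probe set had 200.7 on the high-fat and 91.1 on the low-fat array. The first Crot probe set was under 2-fold without centring (0.93), with centring on hybridization controls (0.99) and with the pseudocount (0.84), but positive in each. Cyp8b1, the sterol 12-alpha-hydroxylase of bile acid synthesis, had a ratio of 0.95. On the lower side, Me1, the malic enzyme, was 2.40-fold lower at 25.4 on the high-fat and 66.1 on the low-fat array, and was under 2-fold with the pseudocount (-0.56). The second Me1 probe set was below the high-fat floor and lower by at least 1.46-fold. Acot4, a peroxisomal thioesterase, had a ratio of -0.84, Txnip, a regulator of thioredoxin, one of -0.84, and Pex11a, a peroxisome division factor, one of -0.78, with -0.12 on its second probe set.

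Other widely used Ppara targets lay closer to 0. Ehhadh, the bifunctional enzyme of peroxisomal oxidation, had 470.7 on the high-fat and 621.9 on the low-fat array (-0.29), and Cpt1a, the gate of mitochondrial fatty acid entry, had ratios of -0.35 and -0.33 on its 2 probe sets. Fabp1, the liver fatty acid binding protein, had 4214 on the high-fat and 4200 on the low-fat array (0.12, with a sign that turned under the scalings, down to -0.01). Plin2, a lipid droplet coat protein, had ratios of -0.02 and, on its second and dimmer probe set, -0.43, and Fgf21, a fasting hormone, had 28.5 on the high-fat and 22.1 on the low-fat array (0.48).

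**Figure D4:**
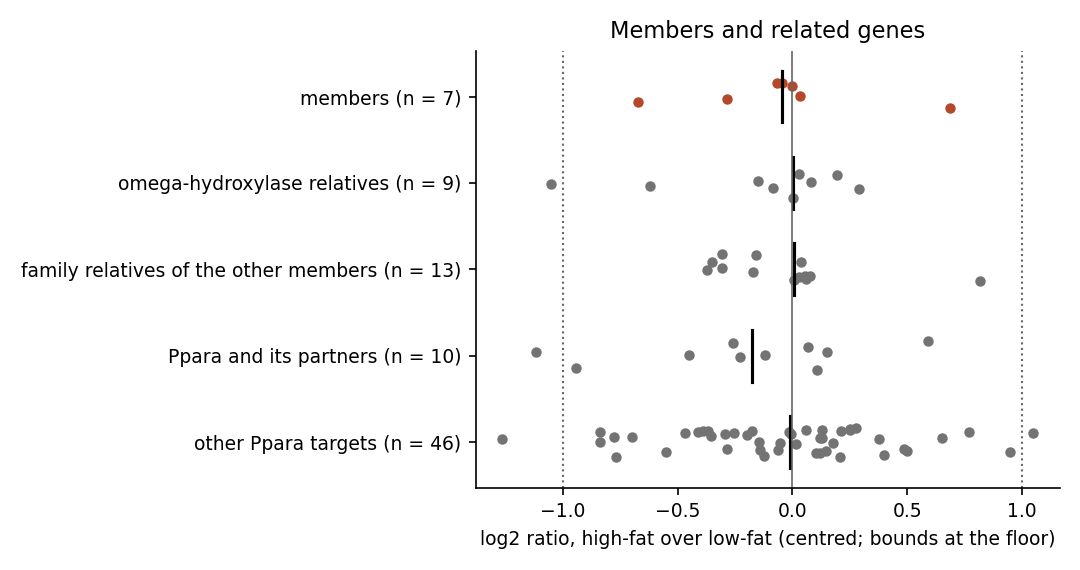
Centred log2 ratio (high-fat over low-fat) for the 7 measured members and the measured genes of 4 related lists, 1 point per gene, with black bars at the medians and dotted lines at 2-fold (values bounded at the floor). Members reach neither dotted line, and the list medians run from -0.18 to 0.01.

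The tissue label was checked against cell type markers. All 11 hepatocyte markers with a probe set were above both floors, with a summed signal of 39773 on the high-fat and 39364 on the low-fat array. None of 6 lymphocyte and 6 striated muscle markers was. Of 7 stellate cell markers 3 were above both floors, and the summed signal of the 7 was 294.6 on the high-fat and 402.4 on the low-fat array. The centred ratios of the 4 measured stellate markers were all below 0, with a median of -0.43. Those of the 11 hepatocyte markers were above 0 for 10 and below 0 for 1, with a median of 0.15.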

How the data were processed

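Values were the linear intensities the authors deposited, 1 for each probe set on each array. How the authors made them from the scanned image is not given in the sources used here, and the scale was read from the values. Of 15923 rows, 57 controls were left out, and 4 probe sets listed at 0 on an array were dropped before log2. The platform annotation gave 1 symbol to 12783 probe sets, several to 312 and none to 2771. Entrez identifiers were looked up in the GRCr8 gene table and changed no symbol. A gene was represented by its probe set of highest mean signal, and members are given on all. A signal below its array's median was set to that median for a fold, which is then a bound. The members, lists and rules were chosen with earlier results of these data known. Named were all members, up to 6 measured genes of each list with the largest ratio, a fixed set of receptors, relatives and targets (some not reported here), and the 3 nearest genes. Alternatives were 6 other scalings, 3 other floors, the dimmer probe set of a gene and folds without bounds, the last added after the data were seen. The steps were tested on simulated data, with differences planted only in bright probe sets and larger than that of any member. Small differences and differences in dim probe sets were therefore not covered by that test. Precision is limited by having a single array for each diet, and no p-value is given. Start regions were aligned with Biopython 1.88, and Python 3.11.15, numpy 2.4.6, pandas 2.3.3 and statsmodels 0.14.6 were used.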

Additional observations from a re-analysis of the deposited data

How the results depend on the processing

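No member ratio moved by more than the robust SD of its signal bin under the 6 other scalings, and the member median stayed between -0.16 and -0.002 over the 6 other scalings, the 3 other floors and folds without bounds. The dimmer probe set of a gene was not run for the median. The count of members past 2-fold was 0 and became 1, Cyp4a8, with the floor at the 25th percentile, with no floor, and with folds not bounded at the floor. Of all measured probe sets 88 were past 2-fold, 45 higher and 43 lower. The split was 27 higher and 87 lower without centring and 35 higher and 65 lower with centring on 18 hybridization controls. The total was 746 of 11565 with the floor at the 25th percentile, 29 of 3950 at the 75th and 3469 of 15862 with no floor. It was 10 of 7864 with the pseudocount of 50, where weak signals are damped by construction. The count of related genes past 2-fold was 4 of 78. It was 2 of 70 with the dimmer probe set of a gene, 2 of 57 with the floor at the 75th percentile and 1 of 78 with the pseudocount. It was 5 of 91 with the floor at the 25th percentile and 10 of 98 with no floor. With the lower floor and with no floor the share over all probe sets rose too, so these larger counts are not a trait of the related genes. With the floor at the 75th percentile only 4 members were measured. Leaving out an array was not possible with 1 per diet. No paired analysis was possible because each diet had 1 array. Dim members (Cyp4a8, Pdk4 and Ucp2) are limited by signal over background, and none of the values covers variation between animals.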
